A study of Mus musculus with 8 samples.

Results

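Histones are the proteins around which DNA is wound in the nucleus, and this account covers the histone genes and histone variant genes of a mouse acute myeloid leukaemia (AML) array series. The members are the probe sets whose platform annotation names exactly 1 gene with a histone symbol (H1f, H2az, H2ax, H2bc, H3c, H3f, H4c, Macroh2a or an older equivalent). The rule gave 37 probe sets of 26 genes, out of 28898 probe sets of 17097 genes with a single symbol. For 15 genes there was 1 probe set, and for the 11 genes with 2 the brighter on average was taken. The genes were matched by symbol, under a rule chosen with earlier results of these data known. The measured mean decided only which probe set stood for a gene.

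The arrays compare 4 RNA samples titled Trib1 hi with 4 titled Trib1 null. Both groups are labelled as AML cells that express Hoxa9, a homeobox factor that drives myeloid leukaemia. Both derive from leukaemia in mice homozygous for a Trib1 knock-out. The Trib1 hi cells are labelled as also expressing Trib1, a pseudokinase known to target the myeloid factor C/EBP alpha for destruction. The cells of both groups were untreated and grew in IMDM medium that held IL-3 at 5 ng/ml and 10% serum, and 100 ng of total RNA was labelled per array. The sources used here do not give how Hoxa9 and Trib1 were introduced, or how many lines or cultures the 4 arrays of a group stand for. The p-values therefore measure the spread between these arrays, which may be technical.

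In each nucleosome, DNA wraps around pairs of the core histones H2A, H2B, H3 and H4, and linker histone H1 sits where the DNA enters and leaves. Most core and linker histones are encoded in gene clusters that are transcribed during DNA replication, and their mRNAs end in a stem-loop rather than a poly(A) tail, although some cluster genes also make polyadenylated forms in cells that leave the cycle. Variants encoded outside the clusters, such as H2A.Z, H3.3 and macroH2A, are made through the whole cell cycle from ordinary polyadenylated mRNAs and mark particular regions of chromatin. The sources used here do not give which form of a cluster mRNA the labelling reached, so a signal of such a gene does not separate the amount of mRNA from the share with a tail.

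Of the 26 genes, 12 cluster genes lie on chromosome 13 and 4 on chromosome 3, and the other 10 lie outside the clusters. The promoters of 21 of the 26 genes are in the RefSeq promoter table of mouse build GRCm38.p6. Shown here are the 180 bases before the start of H1f2 and H2bc22, whose signals rose in the arrays titled Trib1 hi, of H1f4, a linker histone gene of the same cluster whose signal stayed near the bottom of the scale, and of H3f3b, a variant gene outside the clusters. Capitals mark matches, on either strand, to any of 4 motifs. The first is CCAAT. The next, known as the H1 box of linker histone promoters, is AAACACA. The common core promoter box is searched as TATAAA. The last, the octamer known from H2B promoters, is ATTTGCAT.

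H1f2, chr13:23738627-23738806, plus strand: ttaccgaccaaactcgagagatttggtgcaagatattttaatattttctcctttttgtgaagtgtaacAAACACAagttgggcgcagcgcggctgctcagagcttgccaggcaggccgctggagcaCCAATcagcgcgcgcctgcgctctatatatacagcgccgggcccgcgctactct

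H2bc22, chr13:21787308-21787487, plus strand: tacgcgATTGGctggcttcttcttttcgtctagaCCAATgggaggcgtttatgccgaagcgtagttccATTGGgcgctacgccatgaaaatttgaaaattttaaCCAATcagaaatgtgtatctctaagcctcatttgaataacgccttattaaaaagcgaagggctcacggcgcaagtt

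H1f4, chr13:23622559-23622738, minus strand: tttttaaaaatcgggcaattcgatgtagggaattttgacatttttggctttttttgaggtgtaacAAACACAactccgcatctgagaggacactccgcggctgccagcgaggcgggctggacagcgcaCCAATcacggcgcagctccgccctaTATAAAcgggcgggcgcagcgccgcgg

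H3f3b, chr11:116024505-116024684, minus strand: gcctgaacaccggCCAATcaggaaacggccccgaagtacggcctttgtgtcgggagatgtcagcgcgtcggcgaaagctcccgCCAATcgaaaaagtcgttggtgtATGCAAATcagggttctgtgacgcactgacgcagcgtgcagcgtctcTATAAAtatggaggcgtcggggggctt

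CCAAT stood in the window of 12 of the 21 members, against 27.5% of all 32851 promoters in the table. AAACACA stood in 3 of 21, all of them linker histone genes (H1f2, H1f4 and H1f6), against 4.33% of all promoters. TATAAA stood in 5 of 21 against 8.94%, and the octamer in 2 of 21 (H2bc18 and H3f3b) against 1.21%. H1f2 and H1f4 share AAACACA at bases -112 to -106 and -115 to -109 from the start, and CCAAT at -54 to -50 and -52 to -48. H2bc22 held 4 CCAAT matches, 2 on each strand, and none of the other letters. These matches are a description of letters only.

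Signal is the linear MAS5 intensity that the authors deposited. Depth in the sense of reads does not apply to arrays, and the number of arrays limits the precision. The arrays differed at low signal: the median intensity was 68.3 on Trib1 hi 3 and 3.71 to 9.56 on the other 7. The GC25 background control read 12.2, 11.4, 379 and 15.1 on arrays 1 to 4 titled Trib1 hi. On arrays 1 to 4 titled Trib1 null it read 335, 149, 264 and 207. Apart from Trib1 hi 3, background was thus higher on the arrays titled Trib1 null, so at low signal it cannot be told apart from the group. At the bright end Trib1 hi 3 was lowest, with a 99th percentile of the signal of 11618 against 13215 to 17006 on the others. A signal of 500 was therefore used as a floor for folds, which are ratios of geometric means after lower signals were set to 500. The fold is a lower bound, written as at least, where a group had an array below it. The targeted gene went against its title: Trib1 read 7.13, 7.13, 122 and 5.92 on arrays 1 to 4 titled Trib1 hi. On arrays 1 to 4 titled Trib1 null it read 304, 223, 212 and 206 (limma adjusted p = 0.0498). All were below that floor, and all but Trib1 null 2 (223 against 149) were below the GC25 control of the same array. A difference in Trib1 mRNA therefore cannot be told apart from one in background. The sources used here do not give where its probe set lies relative to the deleted or introduced sequence. Hoxa9 read 14.3, 14.3, 391 and 10 on arrays 1 to 4 titled Trib1 hi and 969 to 1075 on the others (limma adjusted p = 5.15e-06). The former lay close to the GC25 control of the same arrays, and the latter well above it. On the arrays titled Trib1 hi this probe set thus does not show the Hoxa9 of the label. Where the Hoxa9 probe set lies relative to the introduced sequence is not given either. Each direction below is that of the titles: higher means higher in the library labelled Trib1 hi.

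Of the 16 cluster genes, 13 were tested and 5 rose in the arrays titled Trib1 hi: the linker histone gene H1f2, the H2B genes H2bc4 and H2bc22 and the H3 genes H3c14 and H3c1, from at least 1.52-fold to at least 6.56-fold. The other 11 cluster genes lay below 500 on all arrays. Of the 10 genes outside the clusters, 7 were tested and 1 rose, the damage-associated variant H2ax, at 1.73-fold. The variant genes H2az1, H2az2, H3f3a, H3f3b and Macroh2a1, each by its brightest probe set, differed by 1.27-fold or less and did not pass the test. The dimmer probe set of H3f3b was called higher in the fit over all probe sets (1.37-fold, limma adjusted p = 0.00537). Whether cluster genes and variants differ in their response was not tested. limma, fitted on log2(intensity + 2.71) across 12250 genes and adjusted by Benjamini-Hochberg, with 0.05 as the threshold, tested 20 of the 26 members and called 6 higher and 0 lower, against 11.1% of all genes tested called higher and 19.7% called lower (1363 and 2409 genes; 3354 and 3346 after quantile normalization, 162 and 2160 with equal array medians). All 6 were above every array titled Trib1 null on every array titled Trib1 hi. The same held for H2bc21, H3c4, H3c7, H3c15, H4c8 and Macroh2a2, all below 500 and not called or not tested. The share of all genes that separate in this way was not computed, so the separation is not read as particular to the members. The 95% interval of every tested member with a negative difference included 0, so at an unadjusted p under 0.05 the members called lower were also 0. The 6 were H1f2, H2bc4, H2bc22, H3c14, H2ax and H3c1. Of the 20 tested members, 9 lay below 500 on all arrays with Trib1 hi 3 highest on each, so the share of tested members called is not read as a property of the family. Among the 9 members over 500 on all 8 arrays, 4 were called higher and 0 lower, against 25.9% and 25.8% of the 4465 genes that met that limit. Their median log2 difference was 0.34, against 0.02 for those genes. With each array's median set equal, which moved the median difference of all tested genes from 0.04 to -0.69, H1f2 was the 1 gene of the 6 still called, and H2ax and H3c1 differed by 0.06 and 0.01. The array medians were 3.71 to 68.3, so this setting scales every gene by low signals, where the arrays differed. Quantile normalization called all 6 higher.

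**Figure D1:**
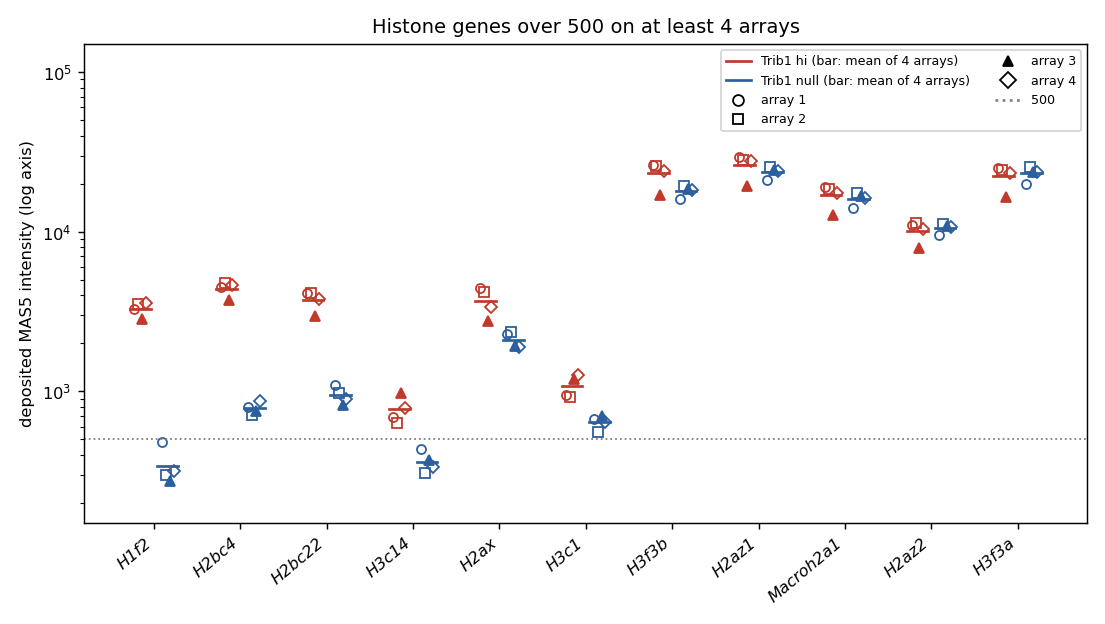
Deposited MAS5 intensity on a log axis for the 11 histone genes with a signal over 500 on at least 4 arrays, ordered by log2 difference. Each symbol is an array, bars are means of 4 arrays, and the dotted line marks 500. The red symbols of H1f2, H2bc4, H2bc22, H3c14, H2ax and H3c1 all lie above the blue ones, while those of the other 5 genes overlap. Trib1 hi 3 (filled red triangle) is the lowest array for 4 of those 5 and the lowest red symbol for H3f3b.

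The linker histone gene H1f2, which encodes histone H1.2, had the largest difference of the members. Its brighter probe set read 3267, 3507, 2825 and 3577 on arrays 1 to 4 titled Trib1 hi and 478, 299.6, 275 and 317 on arrays 1 to 4 titled Trib1 null. Every array titled Trib1 hi was over 2800 and every array titled Trib1 null below the floor of 500. H1f2 was at least 6.56-fold higher, with a log2 difference of 3.28 ± 0.15 (SE; 95% interval 2.99 to 3.58; n = 4 and 4 arrays; limma adjusted p = 2.64e-18, range over alternatives 1.12e-147 to 0.0318). Its other probe set gave 3264, 3265, 2570.4 and 3238 against 649, 358, 403 and 478, at least 5.75-fold higher. Both probe sets of H1f2 thus showed the same separation of the groups. After quantile normalization the log2 difference was 4.23.

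H2bc4, an H2B gene of the chromosome 13 cluster formerly called Hist1h2bc, came next. It read 4473, 4783, 3727 and 4608 on the arrays titled Trib1 hi and 800.5, 709.7, 756 and 867 on those titled Trib1 null. All 8 values exceeded the floor, so its 5.60-fold difference is measured on both sides (log2 difference 2.48 ± 0.10; 95% interval 2.27 to 2.69; limma adjusted p = 5.04e-19, and 0.199 with equal medians, the highest over alternatives, from 1.72e-163). H2bc22, another H2B gene of the chromosome 13 cluster, formerly called Hist1h2bp, read 4119, 4125, 2983 and 3779 against 1095, 971, 824 and 892. It was 3.96-fold higher (log2 difference 1.98 ± 0.11; 95% interval 1.75 to 2.21; limma adjusted p = 1.18e-15, and 0.413 with equal medians, the highest over alternatives, from 4.03e-105). The dimmer probe set of H2bc22, whose name ends in _x_at, by which Affymetrix marks probes shared with other sequences, read 11.4 to 202 and overlapped between the groups. The H2B genes H2bc18 and H2bc21 stayed below 500 on all 8 arrays, at 2.62 to 44.8 and 2.92 to 204.

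Of the 6 H3 genes of the clusters, 2 were called higher. H3c1, which encodes the replication-dependent H3.1 protein, read 951, 917, 1189 and 1272 against 667, 559.6, 699 and 645, a 1.67-fold increase with no overlap between the groups. Its log2 difference was 0.74 ± 0.15 (95% interval 0.43 to 1.05; limma adjusted p = 2.14e-04), and the call ended with equal medians (adjusted p = 0.992), with a floor of 1000 (0.0834) and where its probe sets were averaged (0.735; alternatives ranged from 2.33e-07 to 0.992). H3c14, an H3.2 gene of the chromosome 3 cluster, read 694, 634, 977 and 786 against 438, 306, 372 and 335. It was at least 1.52-fold higher (log2 difference 1.08 ± 0.22; 95% interval 0.63 to 1.52; limma adjusted p = 1.81e-04), a call that ended with equal medians (0.778) and where its probe sets were averaged (0.312; alternatives ranged from 9.59e-10 to 0.778). After quantile normalization its difference was 2.15.

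The H3 signals cannot be assigned to a single gene. Both H3c1 and H3c14 were read by probe sets ending in _s_at, which by Affymetrix naming match transcripts of several genes. The other probe set of each, with the plain ending _at, stayed near the bottom of the scale, at 1.37 to 2.34 for H3c1 and 3.47 to 100.4 for H3c14. Cluster genes of a class are near-identical in their coding sequence, so these increases are of H3 transcripts that the probes share, and which members carry them was not tested. H3c4, H3c7, H3c11 and H3c15, read by plain probe sets, were below 500 on every array, and none was called, with adjusted p from 0.0846 for H3c15 to 0.462 for H3c11.

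**Figure D2:**
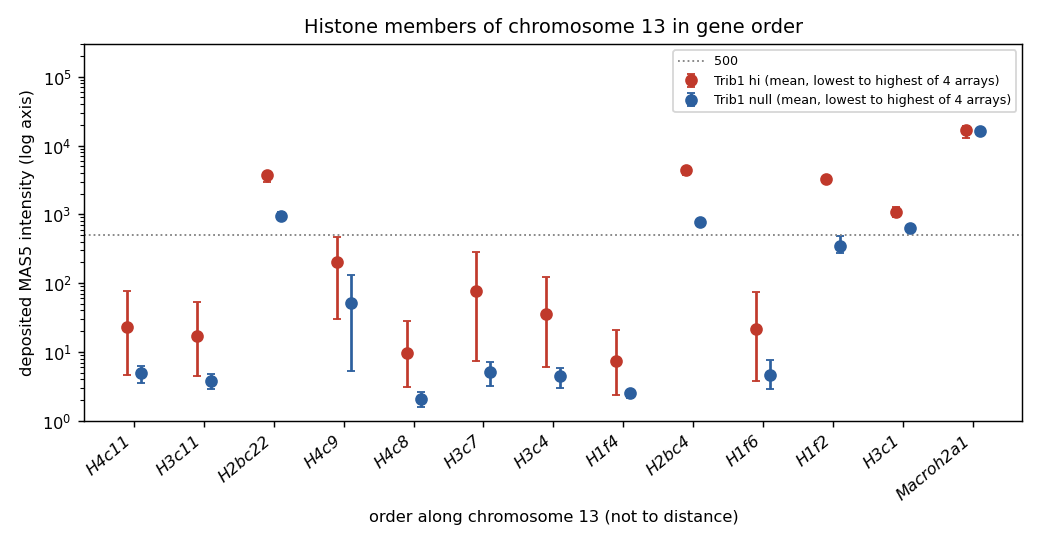
Deposited MAS5 intensity on a log axis for the 13 members on chromosome 13, in gene order and not to distance. Points are means of 4 arrays and bars run from the lowest to the highest array. H2bc22, H2bc4 and H3c1 exceed 500 in both groups and H1f2 only in the arrays titled Trib1 hi, and each of these is higher there. Members between them in gene order, such as H1f6 and H1f4, stay below 500. Macroh2a1, beyond the cluster, exceeds 500 in both groups, and its bars overlap.

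Along chromosome 13 the increases were not shared by all neighbours. The gene order among the members was H4c11, H3c11, H2bc22, H4c9, H4c8, H3c7, H3c4, H1f4, H2bc4, H1f6, H1f2 and H3c1, with Macroh2a1 beyond the cluster. H1f6, the testis linker histone gene between H2bc4 and H1f2, read 2.86 to 7.57 on 7 arrays and 74 on Trib1 hi 3. H1f4, next to H2bc4 on the other side, read 2.16 to 3.66 on 7 arrays and 20.8 on Trib1 hi 3. The plot of chromosome 13 members in gene order shows which of them exceeded 500. None of the 3 H4 genes (H4c8, H4c9 and H4c11) exceeded 500 on any array. H4c9 read 70.5, 29.9, 467 and 253 against 131, 5.21, 6.88 and 62.2, with overlap between the groups.

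H2ax, whose protein is phosphorylated around DNA breaks, was the 1 variant gene outside the clusters called higher in the fit with 1 probe set per gene. It read 4432, 4209, 2769 and 3381 on the arrays titled Trib1 hi and 2273, 2341, 1926 and 1904 on those titled Trib1 null. The lowest of the former exceeded the highest of the latter, and the difference was 1.73-fold (log2 difference 0.79 ± 0.12; 95% interval 0.55 to 1.03; limma adjusted p = 1.55e-06). The call held in the alternatives tried except equal medians (adjusted p = 0.964; range over alternatives 4.55e-20 to 0.964). H2ax makes both a stem-loop and a polyadenylated mRNA, so by its mRNA it stands between the cluster genes and the other variants.

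The H3.3 genes H3f3a and H3f3b encode the same protein, the H3 variant deposited outside replication. Neither was called in the fit with 1 probe set per gene. H3f3b read 26131, 25626, 17015 and 23876 against 16127, 19349, 18535 and 18249, so that 3 of the 4 arrays titled Trib1 hi lay above all arrays titled Trib1 null and Trib1 hi 3 lay among them. Its difference of 1.27-fold missed the threshold (log2 difference 0.34 ± 0.16; limma adjusted p = 0.108) and passed without Trib1 hi 3 (0.48, adjusted p = 7.44e-04) and after quantile normalization (0.31, adjusted p = 4.92e-09, with 0.848 the highest of the alternatives). Its other probe set read 17027, 16866, 11772 and 16705 against 10269, 12200.3, 11145 and 11369 and was called in the fit over 19322 probe sets (1.37-fold higher, adjusted p = 0.00537). In that fit 26 member probe sets were tested, 8 were called higher and 0 lower, against 9.05% of all probe sets tested called higher and 17.2% called lower.

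H3f3a did not separate the groups. It read 24959, 24401, 16473 and 23339 against 19915, 25268, 23828 and 23739, with a log2 difference of -0.07 (95% interval -0.41 to 0.27; limma adjusted p = 0.836). Its other probe set differed by 0.03. After quantile normalization H3f3a was called lower by a small difference (-0.09, adjusted p = 3.31e-04), and without Trib1 hi 3 its difference was 0.07 (adjusted p = 0.549; range over alternatives 3.31e-04 to 0.974). Whether the difference of H3f3b exceeds that of H3f3a was not tested.

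The H2A.Z genes H2az1 and H2az2, whose proteins mark the nucleosomes beside active starts, were over 500 on all arrays. H2az1 read 29203, 28114, 19327 and 27692 against 21021, 25448, 24244 and 24009. The groups overlapped only through Trib1 hi 3, and the log2 difference was 0.12 (95% interval -0.22 to 0.47; limma adjusted p = 0.681), rising to 0.26 without that array (adjusted p = 0.0169; range over alternatives 1.92e-05 to 0.860). H2az2 read 11025, 11326, 7954 and 10384 against 9497, 11154, 10876 and 10689, a log2 difference of -0.06 (95% interval -0.31 to 0.18; adjusted p = 0.784). Quantile normalization called it lower (-0.12, adjusted p = 1.46e-04), and without Trib1 hi 3 it was 0.05 (adjusted p = 0.569; range over alternatives 1.46e-04 to 0.999). For these genes the size and even the sign of a difference turned on array Trib1 hi 3 or the scaling.

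MacroH2A carries a large globular domain and is known from silent chromatin. Macroh2a1 read 19026, 18528, 12715 and 17409 against 14170.2, 17401, 16729 and 16205, with a log2 difference of 0.06 (95% interval -0.24 to 0.35; limma adjusted p = 0.855). Its relative Macroh2a2 was dim, at 6.58, 5.44, 122 and 4.76 against 3.19, 4.40, 4.03 and 3.92. The intervals of H3f3a, H2az2, H2az1 and Macroh2a1 exclude an increase as large as that of H2ax, and a miss of the threshold does not show that the groups were equal.

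**Figure D3:**
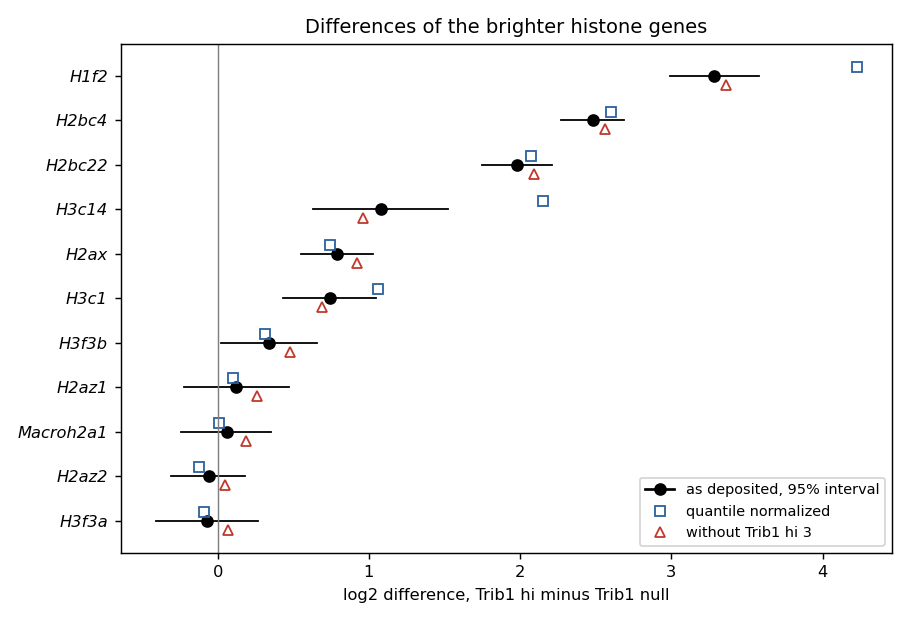
Log2 difference between the arrays titled Trib1 hi and Trib1 null for the 11 histone genes over 500 on at least 4 arrays. Black points and lines are the fit to the deposited values with 95% intervals, blue squares the difference after quantile normalization and red triangles that without Trib1 hi 3. H1f2, H2bc4, H2bc22, H3c14, H2ax and H3c1 lie right of 0 in all 3, and H2az2 and H3f3a change sign between them.

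The other 15 members lay below 500 on all 8 arrays, and 0 of the 9 of them that were tested were called. They include the oocyte linker histone gene H1f8, the spermatid gene H1f7, the testis gene H1f6 and H1f10, which encodes histone H1.10. On all 15, Trib1 hi 3 was the highest array, at 18.9 to 467. Apart from H4c9, the other 7 arrays read 1.36 to 10.3 on these genes. H1f10, H1f7 and H1f8 were below the filter and were not tested, at 3.25 to 28.4, 2.95 to 18.9 and 2.56 to 20.6 on the arrays titled Trib1 hi and 2.02 to 4.74, 2.29 to 3.03 and 2.24 to 3.04 on the others. Without Trib1 hi 3, H2bc21 (9.61, 8.23 and 7.43 against 2.92 to 4.23) and H3c15 (6.49, 6.12 and 5.31 against 1.36 to 2.15) joined the genes called higher, together with H2az1 and H3f3b, which made 10. Both H2bc21 and H3c15 lie in the range where arrays differ, and no fold is given for them. The filter for testing was set on all 8 arrays, so their highest array, Trib1 hi 3, counted towards passing it. On arrays 1, 2 and 4 titled Trib1 hi both genes were also below the GC25 control (12.2, 11.4 and 15.1). The calls of H2bc21 and H3c15 are therefore not read as a result.

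**Figure D4:**
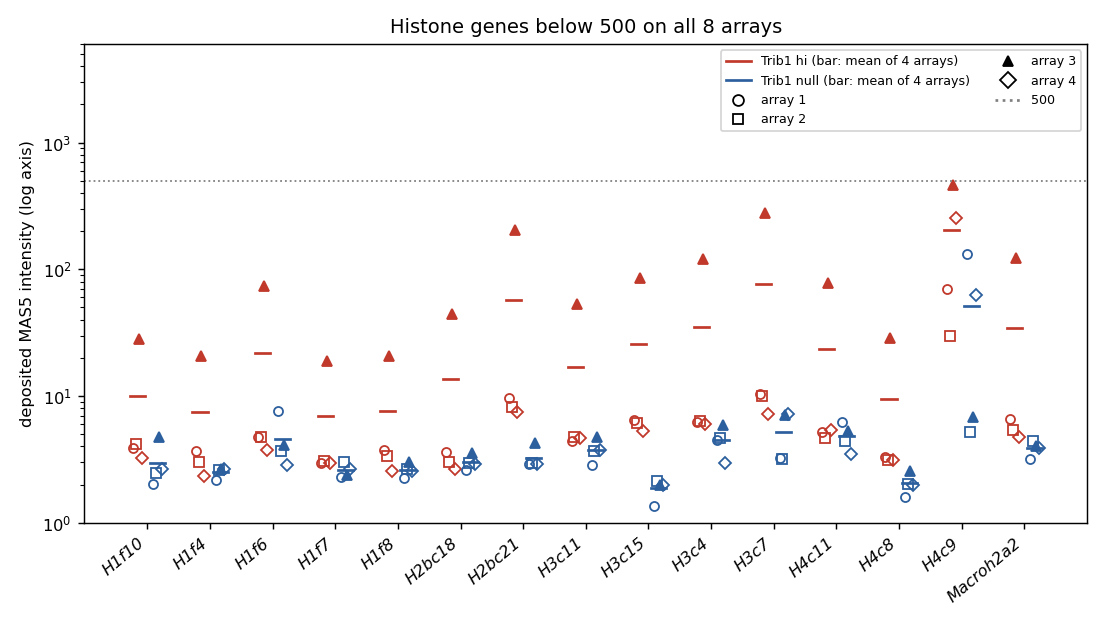
Deposited MAS5 intensity on a log axis for the 15 histone genes below 500 on all 8 arrays. Symbols are arrays and bars are means of 4 arrays. The filled red triangle, Trib1 hi 3, is the highest symbol of every gene.

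Production of cluster histone mRNA needs its own factors, and genes of a list of these, chosen with earlier results of the series known, went both ways. Of 14 listed genes, 12 had a probe set and were tested, 3 were called higher and 1 lower, against 11.1% and 19.7% of all genes tested. The median log2 difference was 0.00 against 0.04 for all genes tested. Of the 9 over 500 on all arrays, 3 were called higher and 1 lower, against 25.9% and 25.8% of all such genes. Npat, the coactivator of histone gene transcription at S phase entry, rose 1.39-fold (1756 ± 53.0 against 1268 ± 84.5, mean ± SD, n = 4; limma adjusted p = 5.05e-04). Cpsf2, a subunit of the complex that cuts the mRNA behind its stem-loop, rose 1.31-fold (adjusted p = 0.00122), and Eri1, an exonuclease that trims histone mRNA, rose 1.30-fold (adjusted p = 0.00965). Srrt, a partner of the cap-binding complex, fell 1.34-fold (adjusted p = 0.00113). Slbp, which binds the stem-loop and is singled out here with its values known, read 6686 ± 981 against 6646 ± 433 (adjusted p = 0.994). Without Trib1 hi 3, 3 genes of this list were called lower.

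Histone chaperones, which carry histones to DNA, went both ways. Of 26 listed, 20 were tested, 6 were called higher and 3 lower (11.1% and 19.7% of all genes tested), with a median log2 difference of 0.22. Of the 13 over 500 on all arrays, 5 were called higher and 3 lower, against 25.9% and 25.8% of all such genes. Ipo4, which imports H3 and H4 into the nucleus, rose at least 1.61-fold (809 ± 112 against 278 ± 91.9; limma adjusted p = 7.30e-06). Npm1 and Set, acidic chaperones with many other roles, rose 1.66-fold and 1.64-fold. Daxx, the chaperone that places H3.3 at silent repeats, fell 1.93-fold, from 1479 ± 18.0 to 772 ± 117 (adjusted p = 3.20e-07). Asf1b, an H3 and H4 chaperone, and Hat1, which acetylates new H4, are singled out with their values known and fell 1.51-fold and 1.45-fold. Without Trib1 hi 3, 10 chaperone genes were called higher.

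Of 13 genes for complexes that exchange H2A variants, 10 were tested, 4 were called higher and 1 lower (11.1% and 19.7% of all genes tested), with a median log2 difference of 0.26. Of the 8 over 500 on all arrays, 4 were called higher and 1 lower, against 25.9% and 25.8% of all such genes. The ATPases Ruvbl2 and Ruvbl1, shared by several of these complexes, rose 1.74-fold (2852 ± 302 against 1635 ± 83.0; limma adjusted p = 6.85e-08) and 1.67-fold. Ino80, the motor of a remodelling complex, rose 1.51-fold, and Znhit1, a subunit of the complex that deposits H2A.Z, fell 1.35-fold (adjusted p = 6.14e-04). Without Trib1 hi 3, 2 of these genes were called lower. Cenpa, the H3 variant of centromeres, read 7841 ± 1395 against 7021 ± 693 (adjusted p = 0.442).

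Genes of S phase, when cluster histones are made, also went both ways. Of 27 listed, 26 were tested, 10 were called higher and 4 lower (11.1% and 19.7% of all genes tested), with a median log2 difference of 0.18. Of the 25 over 500 on all arrays, 10 were called higher and 4 lower, against 25.9% and 25.8% of all such genes. Mcm2, a helicase subunit that also binds H3 and H4, rose 1.78-fold (3801 ± 447 against 2135 ± 253; limma adjusted p = 5.60e-08), and the origin licensing factor Cdt1 and the helicase partner Gins1 each rose 1.65-fold. Lig1, the ligase that joins replicated fragments, fell 1.66-fold (3333 ± 111 to 2016 ± 196; adjusted p = 1.42e-07). The log2 differences of H1f2, H2bc4 and H2bc22 (1.98 to 3.28) were larger than the largest increase among the 26 S phase genes, 0.83 for Mcm2. Whether the difference of a histone gene exceeds that of an S phase gene was not tested. Without Trib1 hi 3, 16 S phase genes were called higher, and with equal medians 0 genes of the 4 lists were called higher.

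**Figure D5:**
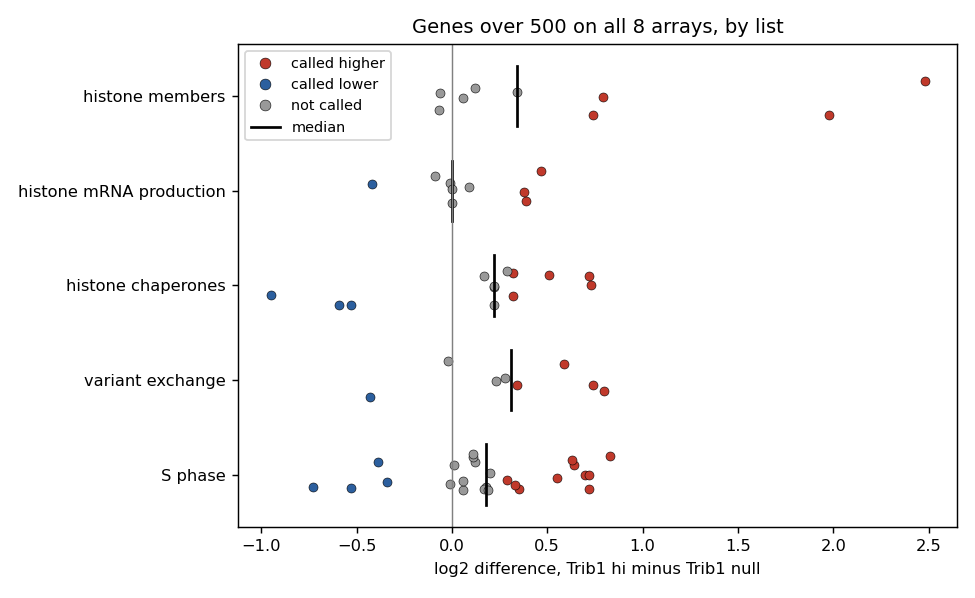
Log2 difference between the arrays titled Trib1 hi and Trib1 null for genes over 500 on all 8 arrays, with a row for the 9 histone members and a row for each list of 9 mRNA production, 13 chaperone, 8 variant exchange and 25 S phase genes. Colours mark the limma call and black lines the median. H2bc4 and H2bc22, at 2.48 and 1.98, lie farther right than every gene of the lists.

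Some markers of cell types also differed between the groups, in directions that varied within and between lists. Of all genes tested, 11.1% were called higher and 19.7% lower, the shares to set beside each count of markers here. Of 9 neutrophil genes listed, 8 had a probe set and were tested, and 5 fell and 0 rose. The summed signal of those 8 was 25312 to 36399.9 on the arrays titled Trib1 hi and 98817 to 122687 on the others, and Ltf, Camp and Mmp8 were below 500 on all arrays. Of 7 mast cell and basophil genes, 5 were tested, 2 rose and 1 fell. The summed signal of the 7 mast cell and basophil genes was 21149 to 29578 against 6052 to 6621. Cpa3 rose (23607 ± 4093 against 1385 ± 22.4) and Mcpt8 fell 1.74-fold (2872 ± 219.8 against 4980.4 ± 321), while Fcer1a, Ms4a2, Cma1 and Tpsb2 were below 500 on all arrays. Of 9 monocyte and macrophage genes, 6 were tested, 3 fell and 1 rose, with sums of 8322 to 9945 against 15274 to 17251 and with Csf1r, Mrc1 and the C1q genes below 500. Of 9 genes listed as myeloid, 6 were over 500 on all arrays, with Ptprc at 12539 ± 1998 against 13069 ± 1303. Of the 12250 genes tested, 4465 met that limit. Mpo was below 500 on the arrays titled Trib1 null, and Spi1 and Csf3r on some titled Trib1 hi. Among the 9, 3 rose and 3 fell, and their sums were 67877 to 96853 against 72338 to 85609. Enzymes of immature granules did not move together. Mpo read 4087 to 5766 against 2.2 to 3.97 and Elane 3566 to 5005 against 711 to 1057. Ctsg (35775 ± 6185 against 36898 ± 3493, limma adjusted p = 0.896) was not called. Prtn3 (20317 ± 3232 against 18019 ± 777, limma adjusted p = 0.512) was not called either. The erythroid, B cell and T cell genes measured (5, 4 and 4) were below 500 on all arrays, with sums of 45 to 709.7 against 65.1 to 437, 14 to 212 against 11.3 to 63.4, and 16.6 to 248 against 16 to 179. Of 6 stroma and endothelium genes 5 were below 500, and the sums were 1597 to 1743 against 2077 to 2363. The part of cell maturity or cell mixture in the histone differences was not tested. In such bulk RNA, more cells of a type and more RNA per cell cannot be told apart.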

How the data were processed

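Members and gene lists were chosen with earlier results of these data known. The authors deposited linear intensity values of 45141 probe sets on 8 arrays, made with MAS5 per the submitters' processing notes. The sources used here do not give its version, its parameters or a genome build. The platform annotation, whose symbols were used as given, lists 29449 probe sets, 28898 with 1 symbol and 551 with several, which were not used. Of the probe sets in the deposited table, 104 are controls. Groups and replicate numbers came from the titles. Intensities were analysed as log2(intensity + 2.71), 2.71 being the 25th percentile of all values, so folds of dim genes are understated on that scale. Tested were 12250 of 17097 genes, those averaging over 3.01 (the 40th percentile) on this scale, with 1 probe set per gene. limma 3.58.1 in R 4.3.3 (lmFit, and eBayes with trend) tested the group difference, two-sided, with Benjamini-Hochberg adjustment over all genes tested. Every adjusted p is limma's. The fit was tested on simulated data with known changes.

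Named were all variants outside the clusters, cluster genes past the threshold without overlap, cluster genes over 500 on all arrays, and up to 4 genes per list with the largest change past the threshold. Exceptions are marked in the text. Spearman correlations were 0.973 to 0.979 within Trib1 hi, 0.957 to 0.967 within Trib1 null and 0.943 to 0.952 between groups. Promoter letters were read from the RefSeq table. Alternatives covered normalization, floors of 500 and 1000, pseudocounts of 1 and 50, filters, probe set choice, the variance trend, the replicate number as a block and leaving out arrays. Leaving out Trib1 hi 3 and Trib1 null 1 together was chosen after seeing the data, as was the floor for folds in earlier work on these arrays.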

Additional observations from a re-analysis of the deposited data

Results flagged for a closer look

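An array stood apart from the other 3 of its group on 17 of 52 tests (26 genes in 2 groups), a gap between the end array and its neighbour above Dixon's critical share of the range; chance flags about 1 in 20 groups. Trib1 hi 3 accounts for 15 of the 17. It was the lowest array of its group for H2az1 (19327 against a mean of 28337 on the other 3, a gap of 0.847 of the range). It was the highest for 14 genes below 500, where the gap was 0.962 of the range for H1f10, 0.929 for H1f4, 0.985 for H1f6, 0.994 for H1f7, 0.932 for H1f8, 0.976 for H2bc18, 0.989 for H2bc21 and 0.994 for H3c11. The gap was 0.985 for H3c15, 0.997 for H3c4, 0.989 for H3c7, 0.990 for H4c11, 0.992 for H4c8 and 0.985 for Macroh2a2. In the arrays titled Trib1 null, array 1 was lowest for H1f4 (2.16 against 2.65, gap 0.894) and array 3 highest for H2bc21 (4.23 against 2.94, gap 0.964).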

How the results depend on the processing

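The 6 histone genes called higher kept their call in 18 of 21 alternatives, and in these alternatives 0 members turned lower except after quantile normalization. Quantile normalization called 14 members higher and 2 lower (H2az2 and H3f3a), equal medians 3 higher, and leaving out Trib1 hi 3 and Trib1 null 1 together 11 higher. Leaving out single arrays gave 6 to 10 higher, with 10 only without Trib1 hi 3. The 10, the 11 and the 3 of equal medians include H2bc21 and H3c15, which were below 500 on all arrays. A floor of 1000 and the mean of probe sets left 4 of the 6.

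Values of 5 members changed sign. With equal medians H2az1 was -0.60, H3f3b -0.38 and Macroh2a1 -0.67. Leaving out single arrays gave -0.12 to 0.05 for H2az2, -0.14 to 0.07 for H3f3a and -0.01 to 0.19 for Macroh2a1.

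Over all genes, 1363 were called higher and 2409 lower. Those called higher were 3354 after quantile normalization (3346 lower), 162 with equal medians (2160 lower), 711 with the mean of probe sets and 2698 without Trib1 hi 3 and Trib1 null 1. Those called lower were 1420 with a floor of 1000, 1285 with the mean of probe sets, 1274 without the variance trend and 3903 without both arrays. Leaving out single arrays gave 1153 to 2103 higher and 1964 to 3768 lower, the highest without Trib1 hi 3.

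In the lists, quantile normalization called 13 chaperone, 7 variant exchange and 17 S phase genes higher and 2 mRNA production genes lower. Equal medians called 0 higher in each list and 2 mRNA production, 0 variant exchange and 1 S phase gene lower. The mean of probe sets gave 1 mRNA production gene higher, and 2 higher and 2 lower in variant exchange. Without the variance trend 3 chaperone genes were higher and 0 variant exchange genes lower. Without Trib1 hi 3 and Trib1 null 1, 16 S phase genes were higher, and 3 mRNA production and 2 variant exchange genes lower. Leaving out single arrays gave 4 to 10 chaperone and 8 to 16 S phase genes higher, and 1 to 3 mRNA production and 1 to 2 variant exchange genes lower.

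With the replicate number as a block, 6 members were higher and 0 lower, and 1284 and 2346 of all genes. Same-numbered arrays did not deviate together (correlations of deviations -0.507, 0.487, -0.294 and 0.367), so the numbers were not taken as pairs. Signals below 500 limit what the arrays show of the 15 dim members. The causes of these changes were not tested.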

Other observations

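Besides the members, 10 genes with H2A, H2B or H4 symbols of other forms had probe sets; they were looked up after the data were seen. H2aw, an H2A gene of a small cluster on chromosome 11, read 1089.9 ± 91.2 on the arrays titled Trib1 hi and 414 ± 109.9 on those titled Trib1 null (mean ± SD, n = 4), at least 2.11-fold higher without overlap between the groups (limma adjusted p = 1.89e-07). H2aj, an H2A variant with a polyadenylated mRNA, read 4438 ± 439.9 against 4231 ± 197 (adjusted p = 0.702). The other 8, among them testis variants such as H2al2a and H2bl1, were below 500 on all 8 arrays and were not tested.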
